A study of Mus musculus with 8 samples.

Results

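HIF-1 targets outside glycolysis were followed here as 10 genes, selected by symbol: *Bnip3*, *Bnip3l*, *Ankrd37*, *Vegfa*, *P4ha1*, *P4ha2*, *Ndrg1*, *Kdm3a*, *Ddit4* and *Mxi1*. All 10 were among the 56748 genes of the deposited table, and 9 of them passed the expression filter used for testing, *P4ha2* being the exception. The cells were 32D, an interleukin-3 (IL-3)-dependent mouse myeloid line, and all of them had been transduced with murine Jak2WT or murine Jak2V617F, the constitutively active mutant of myeloproliferative neoplasms. From each background, single-cell-derived clones with intact glucose transporters (GLUT1/3 WT) and CRISPR-Cas9 clones that had lost both GLUT1 (*Slc2a1*) and GLUT3 (*Slc2a3*) (GLUT1/3 dKO) were sequenced, giving 4 groups of 2 clones and 8 libraries. Before RNA was taken, every clone had spent 24 h in a low-supplement medium, in which glucose was at 5 mM, glutamine at 1 mM and IL-3 at 2 ng/ml. The medium also held 10% fetal calf serum and 1% penicillin/streptomycin. Each library is 1 clone, clones 1 and 3 of each group, so that p-values measure the spread between clones of one transduced line and not between independently made lines.

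Hypoxia-inducible factor 1 (HIF-1) is a heterodimer of HIF-1α and ARNT. In oxygen, prolyl hydroxylases mark HIF-1α for destruction through VHL, whereas low oxygen, and in blood cells also cytokine and growth factor signalling, lets it accumulate and bind hypoxia response elements. Its glycolytic targets are the better known in the setting of glucose uptake. The genes described here serve other arms of the same program: removal of mitochondria (*Bnip3*, *Bnip3l*), restraint of mTORC1 (*Ddit4*), opposition to MYC (*Mxi1*), collagen prolyl hydroxylation (*P4ha1*, *P4ha2*), histone demethylation (*Kdm3a*), angiogenic signalling (*Vegfa*), and stress or differentiation responses (*Ndrg1*, *Ankrd37*).

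The core of the hypoxia response element reads ACGTG or GCGTG, and its presence upstream of these genes is shown first, as a description only, since genes become known as HIF-1 targets in part through such elements. The 250 bases before each RefSeq start site were searched on both strands for these letters, and 8 of the 10 genes were found in the promoter table (*Bnip3l* and *Ndrg1* were not). All 8 had the core before at least 1 start site, against 41.5% of the 27025 genes in the table, and 7 of them had ACGTG, against 18.5%. Some genes have several start sites, *Kdm3a* and *Mxi1* 3 each and *Vegfa* 2. For *Vegfa* the core was found before the downstream start site and not before the upstream one, and the window with it overlaps a coding exon of *Vegfa* itself by 67 coding bases. The windows of *Ddit4* and *Kdm3a* with the core, and 1 of the 2 of *Mxi1*, lie wholly within annotated exons of these genes, that of *Mxi1* with 47 coding bases. The *Ankrd37* window overlaps 17 coding bases of its gene. Printed here are the promoters of *Bnip3*, whose RNA had the largest log2 fall in Jak2V617F with a pseudocount of 1, of *Ankrd37*, which lost the largest share of its level, and of *P4ha1*, whose response differed most between the backgrounds, 5′ to 3′ on the strand of the gene, with every core, or its complement, in capitals (RefSeq, placed in GRCm39 by exact match).
Bnip3 (chr7:138511236-138511485, reverse strand): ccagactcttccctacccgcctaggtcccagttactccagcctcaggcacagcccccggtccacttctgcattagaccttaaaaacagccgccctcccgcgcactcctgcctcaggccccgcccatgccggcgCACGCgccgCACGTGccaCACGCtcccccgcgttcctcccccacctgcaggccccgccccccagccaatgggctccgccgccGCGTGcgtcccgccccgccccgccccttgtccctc
Ankrd37 (chr8:46452888-46453137, reverse strand): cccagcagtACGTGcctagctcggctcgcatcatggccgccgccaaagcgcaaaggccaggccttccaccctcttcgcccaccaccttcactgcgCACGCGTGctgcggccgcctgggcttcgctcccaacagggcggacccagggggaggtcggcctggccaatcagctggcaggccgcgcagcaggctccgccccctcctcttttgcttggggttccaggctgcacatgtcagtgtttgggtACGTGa
P4ha1 (chr10:59158868-59159117, forward strand): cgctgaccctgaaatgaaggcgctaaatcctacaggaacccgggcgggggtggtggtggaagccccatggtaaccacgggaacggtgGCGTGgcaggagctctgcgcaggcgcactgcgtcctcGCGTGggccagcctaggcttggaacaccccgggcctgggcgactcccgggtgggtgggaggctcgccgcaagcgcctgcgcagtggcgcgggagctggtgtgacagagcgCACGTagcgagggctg
The *Bnip3* promoter held 5 cores between 117 and 35 bases before the start site, 2 of them ACGTG read from opposite strands of the same palindrome, which is also the E-box bound by MYC-type factors. *Ankrd37* held 4, with ACGTG as close as 6 bases before its start and 2 GCGTG on opposite strands overlapping each other. *P4ha1* held 3, the nearest 16 bases before the start and read from the reverse strand. *P4ha2*, which was listed at 0 in every library, also held 3. A match gives the letters alone and says nothing on binding in these cells.

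Expression was given as FPKM, fragments on a gene per kilobase of its length scaled to the library, so that levels can be compared between genes. The libraries held between 16846011 and 48884329 reads on genes, and the 2 clones within a group were further apart than read sampling allows, with a chi-square per gene of 7.21 to 30.0 where sampling alone gives about 1. *Slc2a1* had an FPKM of 44.7 to 64.0 in the 4 GLUT1/3 WT clones and of 9.17 to 17.3 in the 4 dKO clones, and *Slc2a3* of 91.9 to 198 and of 16.0 to 49.5, so transcripts of both edited genes were lower but still counted in the dKO clones. *Jak2* reads, endogenous and transduced together, gave 139 to 165 in the Jak2V617F clones and 218 to 258 in the Jak2WT clones. Of 10 myeloblast markers, *Csf2rb*, *Spi1*, *Ptprc*, *Il3ra* and *Prtn3* were expressed, while *Mpo*, *Elane*, *Ctsg*, *Cebpa* and *Kit* stayed under an FPKM of 1 in all 8 libraries. Markers of T cells, B cells and fibroblasts summed to less than 1 in each library. Of 4 macrophage markers 2 were expressed, and the 4 summed to 52.2 to 72.9 in 6 libraries and to 21.9 and 26.4 in the Jak2V617F dKO clones. Of the erythroid markers, the FPKM summed to 94.0 and 112 in Jak2WT cells with intact transporters, to 246 and 291 in the Jak2WT dKO clones, 910.4 and 553 in the Jak2V617F GLUT1/3 WT clones, and 4679 and 2582 in the Jak2V617F dKO clones, the globin genes *Hba-a1* and *Hbb-bs* reaching 2007 and 2209, with *Alas2* and *Slc4a1* under 1 throughout.

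Most members had lower RNA in GLUT1/3 dKO than in GLUT1/3 WT clones. In Jak2V617F cells all 9 tested members fell, by 0.50 (*Mxi1*) to 2.49 (*Bnip3*) on the log2 scale, with a median of -1.18 against -0.02 over the 11818 genes tested. In Jak2WT cells 8 of 9 fell and *P4ha1* missed the threshold, with a median of -0.82 against 0.01 over all genes. Values were tested with limma on log2(FPKM + 1) over all 8 libraries, with Benjamini-Hochberg adjusted p-values, taken over every gene tested, and a threshold of 0.05. Across all genes, 16.2% were called lower and 13.7% higher in Jak2V617F, and 6.06% lower and 7.62% higher in Jak2WT. In both backgrounds the groups did not overlap for any of the 9 members, the dKO pair being the lower, an arrangement found for 34.4% of all genes in Jak2V617F and for 32% in Jak2WT. For 1 gene and 2 clones a group, the smallest two-sided p of an exact permutation test is 0.33, so smaller p-values rest on the spread that limma shares across genes and groups. The 9 calls in Jak2V617F held in each of the 17 alternative analyses. Of 7 erythroid markers tested, 5 were higher and 1 (*Gata1*) lower in Jak2V617F dKO clones, and 2 were higher in Jak2WT dKO clones. Of the 5, *Hba-a2*, reached an FPKM of 1 in only 1 library outside the Jak2V617F dKO clones, so that it passed the expression filter through that group. Of 5 myeloblast markers, 3 were lower in Jak2V617F and 1 in Jak2WT. Of the 2 macrophage markers tested, *Adgre1* fell by 1.54 on the log2 scale in Jak2V617F, and *Cd68* rose by 0.82 in Jak2WT. Their part in the lower HIF-1 target RNA was not tested, and in these bulk libraries fewer cells with a transcript and less of it per cell cannot be told apart.

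**Figure D1:**
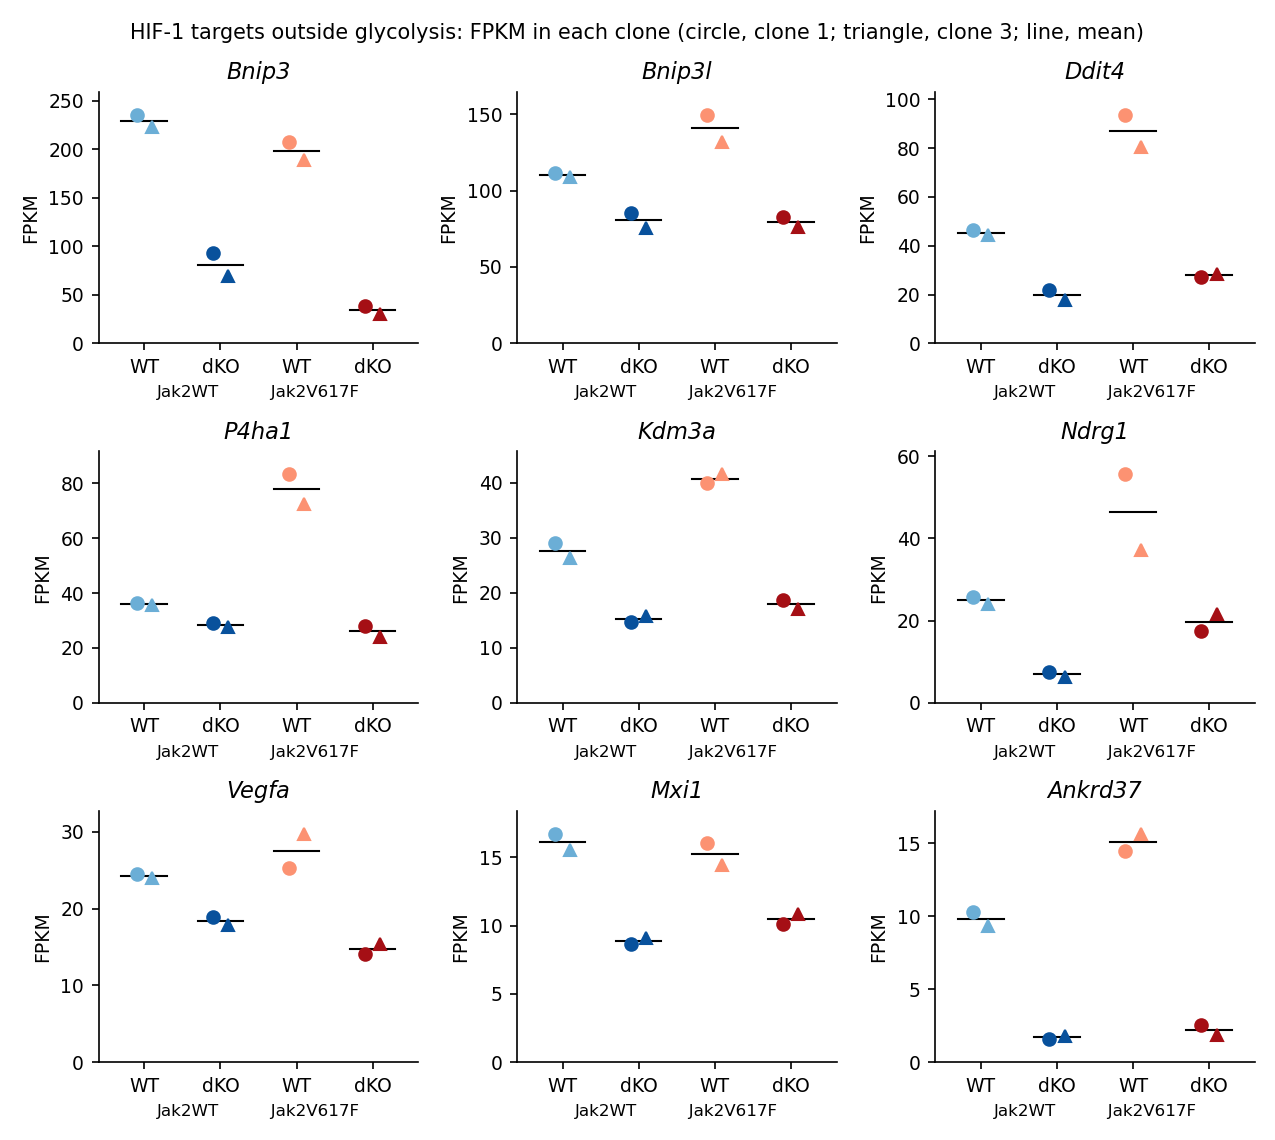
FPKM (vertical axes, linear from 0) of the 9 expressed members in each of the 8 libraries, by group, with circles for clone 1, triangles for clone 3 and a line at the group mean. Every dKO clone lies below both GLUT1/3 WT clones of its background, and the vertical scale differs between panels, from 236 at the top clone of *Bnip3* to 15.7 at that of *Ankrd37*.

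*Bnip3* (ENSMUSG00000078566, chromosome 7, 138492565 to 138511248, reverse strand) encodes an outer mitochondrial membrane receptor that recruits the autophagy machinery to mitochondria. It was the most abundant member in 3 of the 4 groups. In Jak2WT its FPKM was 236 and 223 with intact transporters and 92.8 and 69.7 in dKO clones. It was 208 and 189.5 in the Jak2V617F GLUT1/3 WT clones and 39.0 and 30.3 in the Jak2V617F dKO clones. The 4 groups did not overlap with one another, and the Jak2V617F dKO clones were the lowest. The dKO means were 35.4% of the GLUT1/3 WT mean in Jak2WT and 17.4% in Jak2V617F, log2 fold changes of -1.50 ± 0.16 (SE, n = 2 clones a group; limma adjusted p = 0.00439) and -2.49 ± 0.16 (limma adjusted p = 0.000360).

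*Bnip3l* (ENSMUSG00000022051, chromosome 14, 67222688 to 67246326, reverse strand), also called NIX, is the paralog known for clearing mitochondria from maturing red cells. Its FPKM was 111 and 109 in Jak2WT GLUT1/3 WT clones against 85.6 and 75.5 in Jak2WT dKO clones. In Jak2V617F it was 149.7 and 132 against 82.6 and 75.9. The dKO clones of the 2 backgrounds overlapped, while the Jak2V617F GLUT1/3 WT clones were the highest. The fall was shallower than that of *Bnip3*, to 73.2% of the mean in Jak2WT (log2 -0.45 ± 0.10, limma adjusted p = 0.0297) and to 56.2% in Jak2V617F (log2 -0.82 ± 0.10, limma adjusted p = 0.00165). The Jak2WT call did not hold when any 1 of the 4 Jak2WT libraries was left out, with adjusted p-values between 0.0775 and 0.161, nor without the expression filter (0.0770).

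The ratio of *Bnip3* to *Bnip3l* RNA therefore differed between the groups. In the Jak2WT GLUT1/3 WT clones *Bnip3* had 2.12 and 2.05 times the FPKM of *Bnip3l*. In the Jak2WT dKO clones the ratio was 1.08 and 0.923, in the Jak2V617F GLUT1/3 WT clones 1.39 and 1.43, and in the Jak2V617F dKO clones 0.472 and 0.400. *Bnip3l* was therefore the more abundant receptor in both Jak2V617F dKO clones and in 1 of the Jak2WT dKO clones. Among the other mitophagy genes, 3 of 8 tested fell in Jak2V617F dKO clones, where 16.2% of all genes were lower. The median log2 difference of the 8 was -0.15. *Pink1*, the kinase that flags damaged mitochondria, fell by 0.66, and the adaptors *Sqstm1* and *Optn* by 0.63 and 0.33 on the log2 scale. In Jak2WT, where 6.06% of all genes were lower and 7.62% higher, *Sqstm1* fell by 0.79 and the receptor *Fundc2* rose by 0.45.

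**Figure D2:**
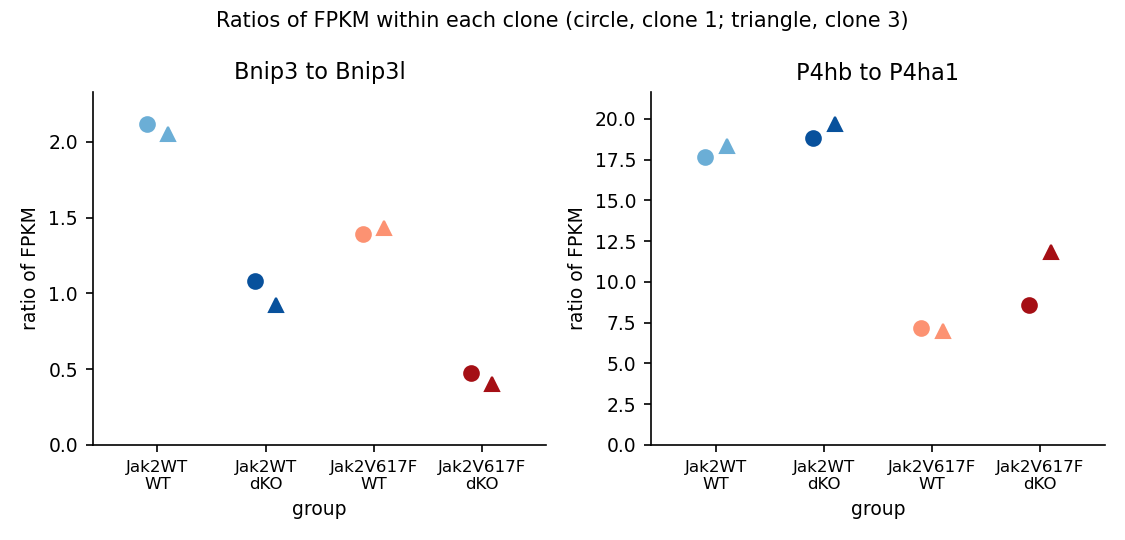
Ratio of FPKM within each clone (vertical axes, linear from 0), by group, for *Bnip3* to *Bnip3l* (left) and for *P4hb* to *P4ha1* (right), with circles for clone 1 and triangles for clone 3. The left ratio drops from 2.12 and 2.05 in Jak2WT GLUT1/3 WT clones to 0.472 and 0.400 in Jak2V617F dKO clones, and the right ratio is lowest in the Jak2V617F GLUT1/3 WT clones.

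*Ddit4* (ENSMUSG00000020108, chromosome 10, 59785491 to 59787656, reverse strand) encodes REDD1, a stress-induced inhibitor of mTORC1. Its FPKM was 46.5 and 44.2 in Jak2WT GLUT1/3 WT clones and 21.7 and 17.8 in their dKO counterparts, and 93.6 and 80.3 against 27.2 and 28.6 in Jak2V617F. The Jak2V617F GLUT1/3 WT clones stood well above the other 6. The dKO mean was 43.6% of the GLUT1/3 WT mean in Jak2WT (log2 -1.16 ± 0.12, limma adjusted p = 0.00370) and 32.1% in Jak2V617F (log2 -1.60 ± 0.12, limma adjusted p = 0.000383). Of 6 tested genes that also restrain mTORC1 or respond to the same stresses, 1 fell in Jak2V617F dKO clones. This share was near the 16.2% of all genes called lower. The gene was *Trib3*, a pseudokinase induced by nutrient stress, which fell by 1.21. The remaining 5, including *Sesn2* (log2 -0.11), *Tsc1* (-0.30) and *Tsc2* (0.15), did not pass the test. In Jak2WT dKO clones the 6 had limma adjusted p-values of 0.0790 to 0.772.

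*Ankrd37* (ENSMUSG00000050914, chromosome 8, 46449939 to 46458744, reverse strand) encodes a small ankyrin repeat protein and is a sensitive reporter of HIF-1 activity. It had the lowest mean FPKM of the expressed members in each group, 10.3 and 9.33 in Jak2WT GLUT1/3 WT clones and 14.5 and 15.7 in Jak2V617F GLUT1/3 WT clones. The dKO clones had 1.59 and 1.83 in Jak2WT and 2.52 and 1.91 in Jak2V617F. The dKO means were 17.5% and 14.7% of the GLUT1/3 WT means, and the log2 fold changes of -1.99 ± 0.12 (limma adjusted p = 0.000530) and -2.33 ± 0.12 (limma adjusted p = 0.000336) understate this because 1 is added to each FPKM. Of the members it lost the largest share of its level in both backgrounds, and its dKO clones did not overlap between them. *Ankrd37* rested on 70 to 718 reads a library, and it overlaps *Ufsp2* on the opposite strand (FPKM 10.6 to 20.2), from which its reads cannot be separated if counting ignored strand. The genes that overlap *Bnip3*, *Ndrg1* and *Mxi1* on the opposite strand had an FPKM of at most 3.03.

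*Ndrg1* (ENSMUSG00000005125, chromosome 15, 66801167 to 66841489, reverse strand) encodes a stress-responsive protein tied to differentiation and growth arrest. Its FPKM was 25.7 and 24.1 in Jak2WT GLUT1/3 WT clones and 7.57 and 6.22 in Jak2WT dKO clones. In Jak2V617F it was 55.6 and 37.3 in GLUT1/3 WT clones, the widest ratio between 2 clones of a group for any member, and 17.5 and 21.7 in dKO clones. The dKO clones of Jak2V617F lay just below the GLUT1/3 WT clones of Jak2WT. Its dKO mean was 27.7% of the GLUT1/3 WT mean in Jak2WT (log2 -1.72 ± 0.19, limma adjusted p = 0.00475) and 42.2% in Jak2V617F (log2 -1.18 ± 0.19, limma adjusted p = 0.00458). Of its paralogs, *Ndrg3* alone passed the expression filter, with log2 fold changes of -0.09 in Jak2V617F and 0.11 in Jak2WT that did not pass the test.

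*P4ha1* (ENSMUSG00000019916, chromosome 10, 59159118 to 59209126, forward strand) encodes a catalytic α subunit of collagen prolyl 4-hydroxylase, which works as a tetramer with *P4hb* as its β subunit. Its FPKM was 36.4 and 35.8 in Jak2WT GLUT1/3 WT clones and 28.9 and 27.5 in Jak2WT dKO clones. It was 83.3 and 72.4 in Jak2V617F GLUT1/3 WT clones and 28.0 and 24.2 in Jak2V617F dKO clones. The 2 Jak2V617F GLUT1/3 WT clones stood apart, and the dKO clones of both backgrounds overlapped. In Jak2V617F the dKO mean was 33.5% of the GLUT1/3 WT mean (log2 -1.54 ± 0.10, limma adjusted p = 0.000360). In Jak2WT it was 78.1%, a log2 difference of -0.35 (95% confidence interval -0.58 to -0.11, limma adjusted p = 0.0646), which passed the threshold in 6 of 17 alternatives, among them voom on the recovered reads (0.0105), scaling to the same total (0.0161) and a fit of the Jak2WT libraries alone (0.0296), and on leaving out Jak2V617F dKO clone 1 or clone 3 (0.0474 and 0.0475).

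The other α subunit among the members, *P4ha2* (ENSMUSG00000018906, chromosome 11, 53990921 to 54022491, forward strand), was listed at 0 in all 8 libraries. A floor of 3 reads would correspond to an FPKM of 0.00976 to 0.0277, depending on the library. Since *Mrpl53*, a mitochondrial ribosome gene, was also listed at 0 in all libraries, no level is drawn from these zeros. Among its neighbours on chromosome 11, *Slc22a4*, *Pdlim4*, *Il3* and *Acsl6* were likewise listed at 0, and *Slc22a5* had 3.89 to 5.16. Of 5 tested partners in collagen hydroxylation, 3 fell in Jak2V617F dKO clones, where 16.2% of all genes were lower. *Plod1*, a lysyl hydroxylase, fell by 1.71, *P4hb* by 1.06 and *Plod3* by 0.45 on the log2 scale, while *P3h1* (-0.33) and *Crtap* (-0.32) did not pass. In Jak2WT, where 6.06% of all genes were lower, *Plod1* alone fell, by 0.96. The ratio of *P4hb* to *P4ha1* was 17.6 to 19.7 in the 4 Jak2WT clones and 6.97 to 11.9 in the 4 Jak2V617F clones.

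*Kdm3a* (ENSMUSG00000053470, chromosome 6, 71565956 to 71609974, reverse strand) encodes a histone H3 lysine 9 demethylase. Its FPKM was 29.1 and 26.2 in Jak2WT GLUT1/3 WT clones against 14.8 and 15.7 in Jak2WT dKO clones, and 39.9 and 41.5 against 18.7 and 17.1 in Jak2V617F. The clones of each group lay close together. The dKO mean was 55.0% of the GLUT1/3 WT mean in Jak2WT (log2 -0.82 ± 0.087, limma adjusted p = 0.00433) and 44.0% in Jak2V617F (log2 -1.14 ± 0.087, limma adjusted p = 0.000409). Its paralogs *Kdm3b* and *Jmjd1c* had log2 differences of 0.07 and -0.01 in Jak2V617F and of -0.24 and -0.12 in Jak2WT, none past the test.

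*Mxi1* (ENSMUSG00000025025, chromosome 19, 53298949 to 53364241, forward strand) encodes a MAX partner that represses MYC targets. Its FPKM was 16.7 and 15.5 in Jak2WT GLUT1/3 WT clones against 8.65 and 9.09 in Jak2WT dKO clones, and 16.0 and 14.5 against 10.1 and 10.8 in Jak2V617F. The GLUT1/3 WT clones of both backgrounds overlapped. Its dKO mean was 55.1% of the GLUT1/3 WT mean in Jak2WT (log2 -0.79 ± 0.086, limma adjusted p = 0.00441) and 68.8% in Jak2V617F (log2 -0.50 ± 0.086, limma adjusted p = 0.00586). Without Jak2WT GLUT1/3 WT clone 1 the Jak2WT difference was -0.74 and its adjusted p 0.0502. In the MAX network around it, 4 of 10 tested genes fell and 2 rose in Jak2V617F dKO clones, where 16.2% of all genes were lower and 13.7% higher. Those that fell were *Mycn* (log2 -1.10), *Mxd4* (-0.47), *Myc* (-0.47) and *Max* (-0.45), and *Mxd3* (1.23) and *Mlx* (0.40) rose. In Jak2WT dKO clones *Mycn* fell by 0.60 and *Mlx* rose by 0.41, and the other 8 did not pass. Of all genes, 6.06% were lower and 7.62% higher there.

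*Vegfa* (ENSMUSG00000023951, chromosome 17, 46327919 to 46343295, reverse strand), the main angiogenic growth factor, had an FPKM of 24.5 and 24.0 in Jak2WT GLUT1/3 WT clones and of 18.9 and 17.9 in Jak2WT dKO clones. It had 25.3 and 29.7 in Jak2V617F GLUT1/3 WT clones and 14.0 and 15.4 in Jak2V617F dKO clones. The dKO mean was 75.8% of the GLUT1/3 WT mean in Jak2WT (log2 -0.38 ± 0.097, limma adjusted p = 0.0428) and 53.5% in Jak2V617F (log2 -0.86 ± 0.097, limma adjusted p = 0.00131). The Jak2WT call was lost in 7 of 17 alternatives, including each fit without 1 of the 4 Jak2WT libraries (adjusted p between 0.139 and 0.196). Of its relatives, *Vegfb* fell by 0.43 in Jak2WT and had -0.15 in Jak2V617F, where it did not pass, and the receptor gene *Flt1* passed in neither. *Vegfc*, *Vegfd*, *Pgf*, *Kdr*, *Nrp1* and *Nrp2* did not pass the expression filter.

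**Figure D3:**
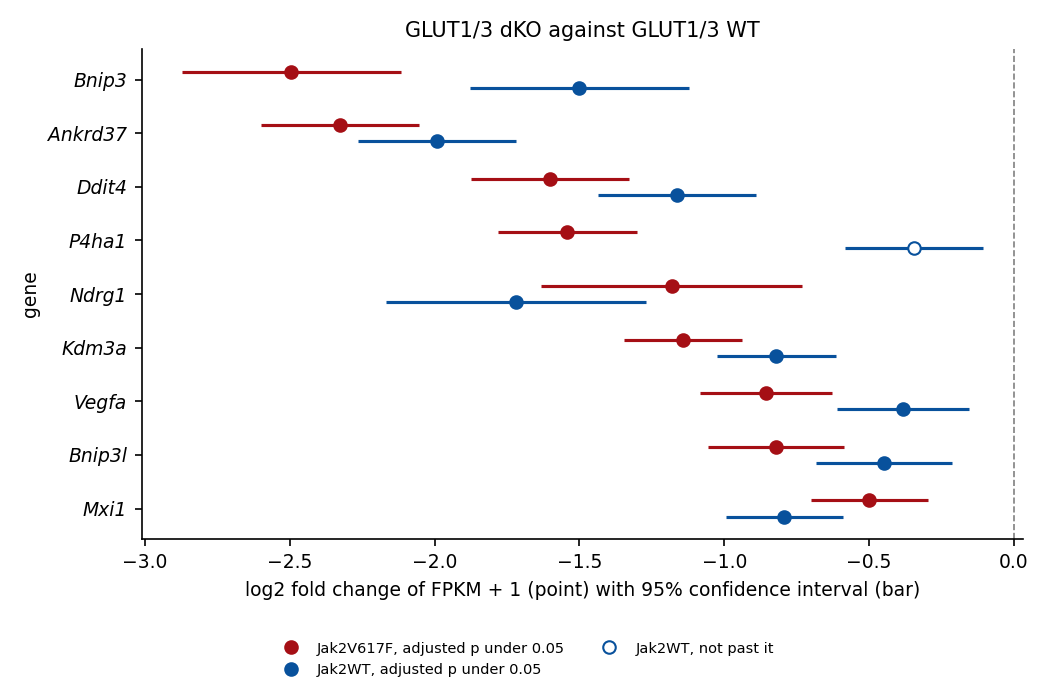
Log2 fold change of FPKM + 1, GLUT1/3 dKO against GLUT1/3 WT (horizontal axis), for the 9 expressed members in Jak2V617F (red) and Jak2WT (blue), with bars for the 95% confidence interval from limma and filled points for an adjusted p under 0.05. All points lie below 0, and *P4ha1* in Jak2WT, at -0.35, is the open one.

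Between the backgrounds with intact transporters, 6 of the 9 members were higher in Jak2V617F than in Jak2WT clones and 3 did not pass the test, against 15.3% of all genes higher and 14.9% lower. These clones also entered the comparisons of GLUT1/3 loss above. *P4ha1* led with 2.16 times the Jak2WT mean (log2 1.08 ± 0.10, limma adjusted p = 0.000754). *Ddit4* followed with 1.92 times (log2 0.92 ± 0.12, limma adjusted p = 0.00200), and *Ndrg1*, *Ankrd37*, *Kdm3a* and *Bnip3l* with log2 differences of 0.85, 0.57, 0.54 and 0.35 (limma adjusted p = 0.0155, 0.0104, 0.00461 and 0.0350). The median over the members was 0.54 against 0.01 over all genes. *Vegfa* (log2 0.17, 95% confidence interval -0.06 to 0.40), *Mxi1* (-0.08, -0.28 to 0.13) and *Bnip3* (-0.21, -0.59 to 0.17) did not pass the test. For *Bnip3*, the most abundant member, both Jak2V617F clones nevertheless lay below both Jak2WT clones. The calls of *Bnip3l* and *Ndrg1* were lost without the expression filter (adjusted p 0.0774 and 0.0623), and that of *Bnip3l* also with equal totals (log2 0.20, adjusted p 0.0827). Single libraries mattered too: *Bnip3l* was lost without either Jak2WT GLUT1/3 WT clone or without Jak2V617F GLUT1/3 WT clone 1 (adjusted p 0.121 to 0.155), *Ndrg1* without the same 3 libraries (0.0568 to 0.0836), and *Ankrd37* without clone 3 of either group (0.0741 and 0.0530). Of the 7 erythroid markers tested, 5 were also higher in the Jak2V617F GLUT1/3 WT clones, as were 2 of 5 myeloblast markers, and 1 of 2 macrophage markers was lower, and their part in these differences was not tested.

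**Figure D4:**
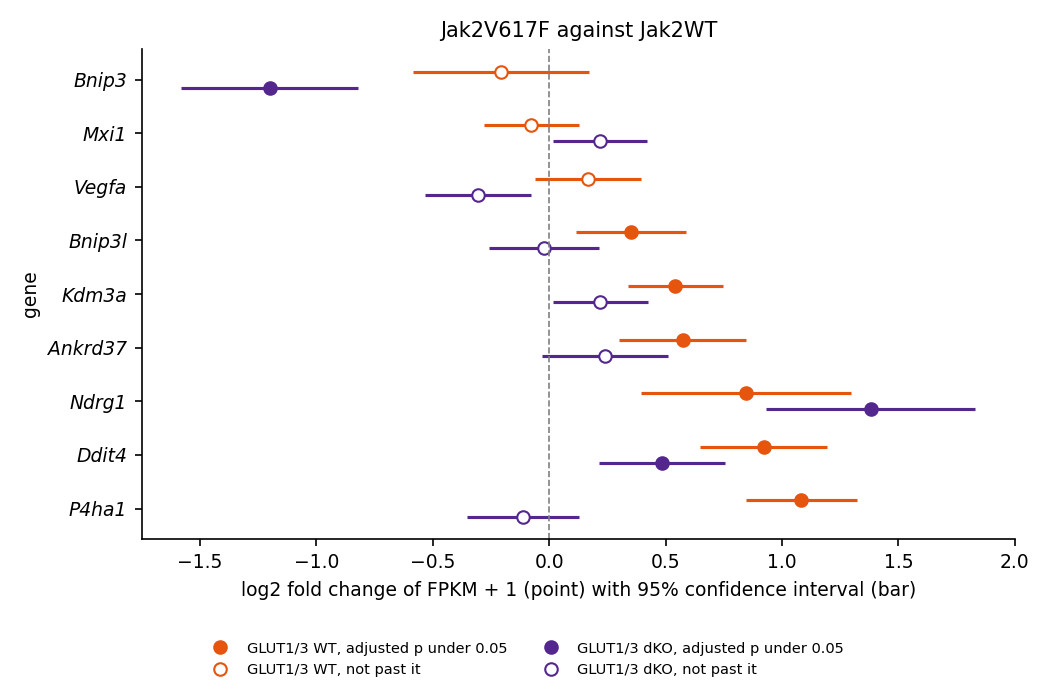
Log2 fold change of FPKM + 1, Jak2V617F against Jak2WT (horizontal axis), for the 9 expressed members among GLUT1/3 WT clones (orange) and among dKO clones (purple), with bars for the 95% confidence interval from limma and filled points for an adjusted p under 0.05. Among GLUT1/3 WT clones 6 points are filled above 0, and among dKO clones *Ndrg1* and *Ddit4* are filled above 0 and *Bnip3* below it.

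After GLUT1/3 loss, 2 members were higher in Jak2V617F than in Jak2WT dKO clones, 1 was lower and 6 did not pass the test. Across all genes 7.12% were higher and 9.96% lower. *Ndrg1* was higher, at 2.84 times the Jak2WT mean (log2 1.38 ± 0.19, limma adjusted p = 0.00455), and *Ddit4* at 1.41 times (log2 0.48 ± 0.12, limma adjusted p = 0.0301). The *Ddit4* call was lost in 7 of 17 alternatives, with adjusted p-values of 0.148 without Jak2WT dKO clone 3, 0.0808 and 0.0906 without Jak2V617F dKO clones 1 and 3, and 0.0573 and 0.0575 without Jak2WT GLUT1/3 WT clones 1 and 3. *Bnip3* was lower, at 0.427 times the Jak2WT mean (log2 -1.20 ± 0.16, limma adjusted p = 0.00406). *P4ha1*, 2.16 times higher before, had a log2 difference of -0.11 (95% confidence interval -0.35 to 0.13). For *Bnip3l* the difference was -0.02 (95% confidence interval -0.26 to 0.21), a sign that turned positive under 3 other scalings. *Vegfa* had -0.30, and *Ankrd37*, *Kdm3a* and *Mxi1* had 0.24, 0.22 and 0.22, none past the threshold. Of the erythroid markers, 6 of 7 tested were higher in the Jak2V617F dKO clones, *Hba-a2* among them, while 2 of 5 myeloblast markers and both macrophage markers tested were lower, and their part in these differences was not tested.

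Whether GLUT1/3 loss acted more strongly on one background was tested as the difference of the log2 responses, Jak2V617F minus Jak2WT, which uses the same 8 libraries as the comparisons above. It passed for *P4ha1* (-1.20 ± 0.14, limma adjusted p = 0.00935) and *Bnip3* (-0.99 ± 0.23, limma adjusted p = 0.0379), both of which fell further in Jak2V617F. Across all genes 5.91% had a lower and 4.72% a higher difference. The remaining 7 members did not pass. *Vegfa* (-0.47), *Ddit4* (-0.44), *Bnip3l* (-0.37), *Ankrd37* (-0.33) and *Kdm3a* (-0.32) had negative differences, and *Ndrg1* (0.54) and *Mxi1* (0.29) positive ones, with limma adjusted p-values between 0.0696 and 0.229. Over the alternative analyses the difference of *Ankrd37* ran from -0.47 to -0.08 and that of *Kdm3a* from -0.39 to -0.14. The *P4ha1* call was lost without either Jak2WT GLUT1/3 WT clone or without Jak2WT dKO clone 1 (0.0502, 0.0597 and 0.0503), and that of *Bnip3* in 6 of the 8 fits that left out a library (0.0673 to 0.123), all but those without Jak2WT dKO clone 3 and Jak2V617F dKO clone 1.

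Ordered by FPKM, the members kept nearly the same places in the 4 groups. *Bnip3* and *Bnip3l* were the top pair everywhere, with overlapping clones in Jak2WT dKO and with *Bnip3l* above *Bnip3* in Jak2V617F dKO. *Ddit4* and *P4ha1* held the next places in every group, and their clones overlapped in both Jak2V617F groups, while in Jak2WT dKO clones *Ddit4* overlapped with *Vegfa*. *Kdm3a*, *Ndrg1* and *Vegfa* came in the middle, *Ndrg1* overlapping with *Vegfa* in Jak2WT GLUT1/3 WT clones and with *Kdm3a* in both Jak2V617F groups, and falling below *Mxi1* in Jak2WT dKO clones. *Mxi1* and *Ankrd37* were lowest in the Jak2V617F GLUT1/3 WT clones, where they overlapped, and *Ankrd37* was the lowest expressed member of the other 3 groups.

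A wider set of HIF-1 targets outside glycolysis, 34 of 48 listed genes past the expression filter, was also measured after GLUT1/3 loss. In Jak2V617F dKO clones 24 were lower (16.2% of all genes) and 4 higher (13.7% of all genes), with a median of -0.75, and in Jak2WT dKO clones 15 were lower (6.06% of all genes) and 19 did not pass, with a median of -0.38. The strongest falls in Jak2V617F were those of *Ero1a*, an oxidase of the endoplasmic reticulum (log2 -2.11, limma adjusted p = 0.000860), and *Egln1*, the main HIF prolyl hydroxylase (-1.99, limma adjusted p = 0.000383). Among those that rose was *Klf10*, a TGF-β-induced repressor (log2 1.17, limma adjusted p = 0.00451). For comparison, 14 of 18 glycolytic targets fell in Jak2V617F (median -1.18) and 9 of 18 in Jak2WT (median -0.53), the symbol *Aldoa* standing for 2 of the 18 entries. These 18 include the edited genes *Slc2a1* and *Slc2a3*, without which 12 of 16 fell in Jak2V617F (median -1.17) and 8 of 16 in Jak2WT (median -0.52). Between the backgrounds with intact transporters, 6 of the 34 were higher and 2 lower in Jak2V617F, with a median of 0.10, where 15.3% of all genes were higher and 14.9% lower, so that the share of higher calls was near that of all genes. Among dKO clones 4 were higher and 11 lower, with a median of -0.20, where 7.12% of all genes were higher and 9.96% lower. Of the HIF machinery itself, *Hif1a* and *Arnt* fell by 0.46 and 0.70 in Jak2V617F dKO clones (limma adjusted p = 0.00543 and 0.00258) and did not pass in Jak2WT, where their log2 differences were 0.08 and -0.21. In Jak2WT dKO clones *Egln1* fell by 0.68 (limma adjusted p = 0.0228). *Arnt2*, an ARNT paralog, reached an FPKM of 4.23 and 2.77 in Jak2WT cells with intact transporters, against at most 0.182 in the other 6 libraries, and since it passed the expression filter through that group alone, this is given with no test. For *Hif1a* the difference of the log2 responses to GLUT1/3 loss, Jak2V617F minus Jak2WT, was -0.54 (limma adjusted p = 0.0291). *Epas1*, *Hif3a* and *Egln3* did not pass the expression filter.

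**Figure D5:**
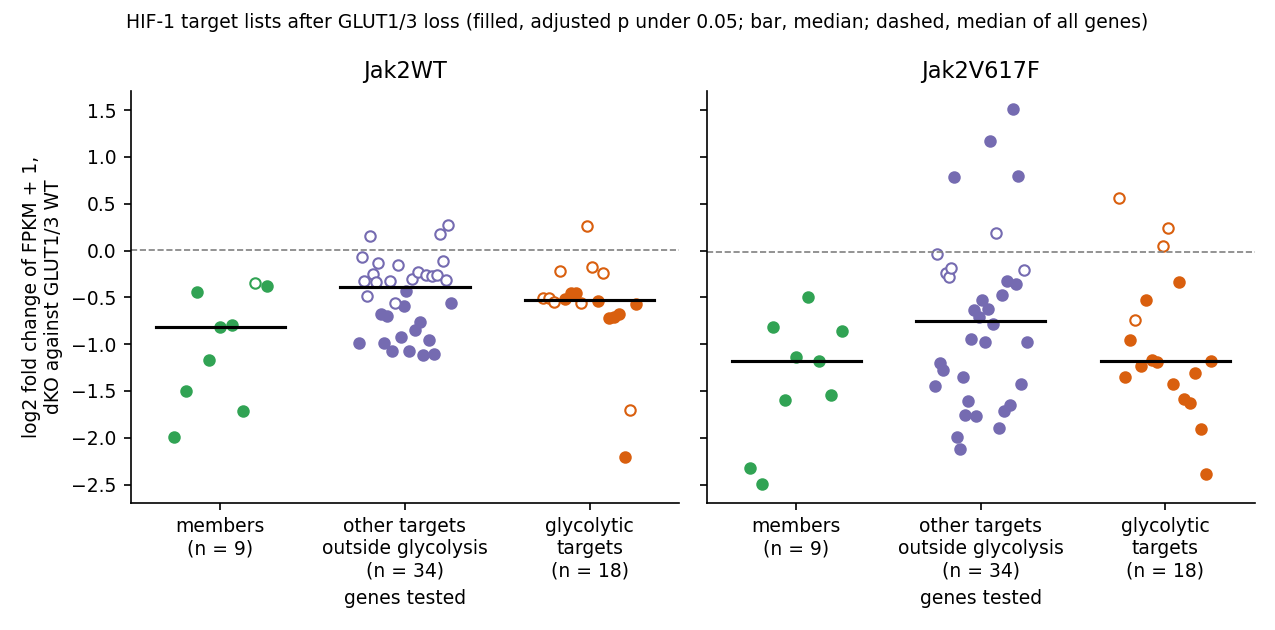
Log2 fold change of FPKM + 1, GLUT1/3 dKO against GLUT1/3 WT (vertical axis), of each gene tested in 3 sets of HIF-1 targets, in Jak2WT (left) and Jak2V617F (right), with filled points for a limma adjusted p under 0.05, a bar at each median and a dashed line at the median of all genes. The medians of the members are -0.82 and -1.18, those of the other targets outside glycolysis -0.38 and -0.75, and those of the glycolytic targets -0.53 and -1.18.

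The mean profile of the members over the 8 libraries, each gene standardised on the log2(FPKM + 1) scale, was high in GLUT1/3 WT clones and low in dKO clones. *Ankrd37* was the member nearest to it, with a root mean square difference of 0.135, and *Bnip3* the farthest, at 0.525. The 5 other genes nearest to it were *Ppp3cb* (0.0970), a calcineurin subunit, *Poli* (0.121), a translesion DNA polymerase, *Zfp292* (0.123), *Fam114a2* (0.139) and *Hbp1* (0.142), a repressor of cell cycle genes, and *Zfp292* was also on the wider list of HIF-1 targets. Standardising removes the size of a change, so that nearness to the profile does not reflect the extent of the fall. *Ppp3cb* had group means of 15.5 and 11.9 in Jak2WT and of 17.6 and 12.6 in Jak2V617F, GLUT1/3 WT and dKO respectively.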

How the data were processed

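RNA from 8 clones of 32D cells was sequenced by the study as poly-A libraries. The authors cleaned reads with fastp 1.0.1, aligned them to mm39 (GRCm39) with HISAT2 2.2.1 and counted them per gene with featureCounts 2.0.6, and deposited FPKM for each library. The annotation version, the strand setting and the library total behind FPKM are not given in the sources used here. Groups came from the titles of the labels. FPKM times gene length was a whole multiple of 1 step per library for 100% of values (tolerance 0.01), which gave reads per gene. All 8 columns of values were used.

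The 11818 genes that reached FPKM 1 in 2 or more libraries were tested with limma 3.58.1 (R 4.3.3) on log2(FPKM + 1), with 4 group means, an intensity trend (4 residual and 3.34 prior degrees of freedom), Benjamini-Hochberg adjustment over all genes and a threshold of 0.05. The test was run on simulated libraries, with noise drawn separately for each gene. Of 179 tested genes changed 2-fold, 171 were called in the right direction, and 16 unchanged genes were called too. With no gene changed, 1 was called. Differences between clones shared by many genes were not simulated. Python 3.11.15 was used for summaries, the promoter search and the plots (matplotlib 3.10.9). The start sites were RefSeq's, and their sequence was placed in GRCm39 by exact match. The alternatives were a pseudocount of 0.1, other filters, no trend, other scalings, voom on recovered reads, the compared groups alone, the clone number as a replicate block, and each library left out. No source used here says that equal clone numbers mark a shared origin. Named are all members, the targeted genes, cell type markers, paralogs and partners, at most the 2 genes with the largest changes in each direction from the wider lists, and the 5 genes nearest to the members' profile. *Hif1a* and the genes next to or overlapping a member were named after their values were seen. The members and lists were chosen with earlier results of these data known. Some items are not reported here.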

Additional observations from a re-analysis of the deposited data

Results flagged for a closer look

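The response to GLUT1/3 loss differed between the backgrounds for 2 of the 9 members tested, by the interaction term of the limma fit, where 5.91% of all genes had a lower and 4.72% a higher difference. For *P4ha1* the difference of the log2 fold changes, Jak2V617F minus Jak2WT, was -1.20 (adjusted p = 0.00935), with dKO means of 33.5% and 78.1% of the GLUT1/3 WT means in Jak2V617F and Jak2WT. For *Bnip3* it was -0.99 (adjusted p = 0.0379), with dKO means of 17.4% and 35.4%. Both directions held in each of the 16 alternatives run for this term, and the call was lost in 8 of them for *Bnip3* and in 3 for *P4ha1*. For *P4ha1* the Jak2V617F GLUT1/3 WT clones, at 83.3 and 72.4, stood apart and the dKO clones of both backgrounds overlapped. For *Bnip3* the GLUT1/3 WT clones had 236 and 223 in Jak2WT against 208 and 189.5 in Jak2V617F, and the dKO clones 92.8 and 69.7 in Jak2WT against 39.0 and 30.3 in Jak2V617F. With 2 clones a group no outlier check of single clones was made.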

How the results depend on the processing

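The 9 lower calls in Jak2V617F dKO clones kept direction and threshold in all 17 alternatives. Fits that each left out a library gave 5 to 9 members lower in Jak2WT dKO clones, 3 to 6 higher in Jak2V617F GLUT1/3 WT clones, 1 to 2 higher in Jak2V617F dKO clones, and 0 to 2 with a lower interaction. The lowest counts came without Jak2WT GLUT1/3 WT clone 1 (5) and clone 3 (3), and 0 interactions without either of these or without Jak2WT dKO clone 1. Members higher in Jak2V617F dKO clones numbered 1 without the filter and 1 with the compared groups alone, against 2. Lower interactions numbered 1 without the filter and 1 without the trend, against 2, and higher interactions 1 with equal totals (*Mxi1*) and 2 with voom (*Mxi1*, *Ndrg1*), against 0. The *Bnip3l* difference between dKO clones, -0.02, became 0.0165 with equal totals, 0.00683 with median ratio scaling and 0.0296 with voom, and ranged from -0.11 to 0.0674 over fits without a library. The cause was not tested.

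Correlations of deviations of same-numbered clones ran from -0.254 to 0.152, so the numbers were not treated as pairing. With the replicate block, *Vegfa* in Jak2WT had an adjusted p of 0.0590 and no other member's call changed. The block moved counts over all genes from 1919 to 1740 lower in Jak2V617F dKO clones and from 716 to 581 in Jak2WT dKO clones. Counts over all genes moved by over 1.5 times in some settings. In Jak2V617F dKO clones 1919 lower and 1614 higher became 853 and 764 with the compared groups alone, and 1017 to 1684 and 1079 to 1358 without a library (1017 without Jak2V617F GLUT1/3 WT clone 1). In Jak2WT dKO clones 716 and 901 became 312 and 402 without the filter, and 36 to 897 and 74 to 1077 without a library. In the interaction 698 and 558 became 181 and 165 without the filter, and 3 to 754 and 2 to 502 without a library. Between GLUT1/3 WT clones 1765 and 1812 became 746 to 1944 and 802 to 2025 without a library. Between dKO clones 1177 and 842 became 592 and 436 with the compared groups alone, 714 and 633 without the filter, 1336 and 1351 with voom, and 348 to 1220 and 272 to 804 without a library. With equal totals (voom in brackets) lower and higher calls were 1378 and 706 (1597 and 1018) in Jak2WT dKO clones, 2930 and 1223 (2659 and 1397) between GLUT1/3 WT clones, and 393 and 1177 (574 and 1334) in the interaction. Equal totals shifted the median of all genes to -0.12 between GLUT1/3 WT clones and to 0.12 in the interaction. The lower share of calls went from 54.3% to 39.8% (voom 40.7%) in Jak2V617F dKO clones, from 44.3% to 66.1% (61.1%) in Jak2WT dKO clones, from 49.3% to 70.6% (65.6%) between GLUT1/3 WT clones, and from 55.6% to 25% (30.1%) in the interaction. A fit of the compared groups alone was not run for the interaction. The 9 tested members rested on 70 reads or more a library, *Ankrd37* having the fewest, so that read sampling limits its values in dKO clones most.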
